A study of Macaca mulatta with 12 samples.

Results

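PDGFRA, PDGFRB, S100A4, THY1 and POSTN are 5 genes commonly read as signs of fibroblasts and related stromal cells. They were chosen by name, and 4 of the 16745 genes in the deposited expression table belonged to the set: PDGFRB, S100A4, THY1 and POSTN. PDGFRA is not analysed here. The 4 genes were followed by RNA sequencing across cultures of cardiomyocytes made from induced pluripotent stem cells of the rhesus macaque (Macaca mulatta), grown either flat in a monolayer or in 3 dimensions as engineered heart tissue (EHT). The 4 groups were monolayer in normoxia, monolayer in hypoxia, EHT in normoxia and EHT in hypoxia, with 3 libraries each. Both cultures were kept in RPMI medium with B27 supplement containing insulin. Hypoxia meant 24 hours in an anaerobic pouch followed by 24 hours in fresh medium, so oxygen and reoxygenation are read together. The labels give no schedule for the normoxia groups, and the effects of low oxygen and of the medium change cannot be told apart. The cell line, the number of separate differentiations and any other cells placed in the tissue are not stated by the labels. The p-values therefore measure only the spread between these libraries, which may be technical.

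Platelet-derived growth factors (PDGFs) are secreted dimers that signal through 2 receptor tyrosine kinases. PDGFRA marks most cardiac fibroblasts, whereas PDGFRB is typical of pericytes and other mural cells and is also found on fibroblasts. S100A4, once named fibroblast-specific protein, is a small calcium-binding protein that binds non-muscle myosin and is also made by leukocytes and other cell types. THY1 (CD90) is a surface glycoprotein of fibroblasts, mesenchymal stromal cells and neurons, among other cells. POSTN encodes periostin, a secreted matrix protein made by activated fibroblasts in the injured heart and in developing valves. None of these genes alone defines a fibroblast.

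Each library held between 4154346 and 11298841 reads assigned to genes, and 11784 to 14372 genes had reads. Library medians of the deposited values ranged from 6.98 to 8.75 on the log2 scale, so values were centred on each library's median before testing. Levels are given below as CPM, the reads of a gene per 1000000 reads assigned to genes in that library. Differences are log2 units of the centred values with the standard error (SE) given by limma. For each gene that SE rests on 1 spread shared by all 4 groups of 3 libraries, not on the groups compared alone. For THY1 the standard deviation (SD) of centred values was 0.08 in monolayer normoxia and 0.91 in EHT hypoxia. A gene was called where limma's adjusted p was under 0.05. The cardiomyocyte label was checked against 12 marker genes, of which 10 were in the table. Their summed reads took 0.0453% to 0.324% of a library in monolayer normoxia and 0.513% to 0.566% in monolayer hypoxia. They took 0.00139% to 0.0157% in EHT normoxia and 0.00201% to 0.0723% in EHT hypoxia, where MYL2, the ventricular myosin light chain, was at 0 in both EHT groups. Other fibroblast markers, 19 of 20 in the table, took 4.35% to 9.95% of the reads of every library. In every library, monolayer and EHT alike, the cardiomyocyte markers took a far smaller share than the other fibroblast markers, which goes against the label. The lists differ in length and in the abundance of their genes, so these sums do not give proportions of cells. By these markers the EHT libraries held little cardiomyocyte RNA, less than the monolayer libraries at the same oxygen condition. The lowest monolayer normoxia library (0.0453%) was below the highest EHT hypoxia library (0.0723%). In bulk RNA, fewer cells of a type and less RNA per cell cannot be told apart.

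EHT libraries carried more PDGFRB and far more S100A4 than monolayers at either oxygen condition. THY1 was lower in EHT than in monolayer after hypoxia, and POSTN was not called in any of the comparisons. In normoxia 2 of the 4 genes were called, both higher in EHT, where 41.2% of all 12084 genes tested were called (22.8% higher and 18.5% lower). In hypoxia 3 of the 4 were called, 2 higher and 1 lower, against 38.1% of all genes (18.4% higher and 19.7% lower). Hypoxia in monolayer called 3, all higher, against 46.5% of all genes (27.8% higher and 18.6% lower). Hypoxia in EHT called 1, lower, against 35.5% of all genes (19.5% higher and 16.0% lower). The hypoxia difference itself differed between the cultures for 2 of the 4 genes, both lower in EHT, against 24.5% of all genes (10.3% higher and 14.1% lower). With 4 genes and backgrounds this high, the counts say little about the set as a whole, and the genes are described singly. Counts for the gene lists below are to be read against these same shares of all genes where they are on centred values. Scaled by library total, 1332 of 12084 genes were called higher and 4417 lower for EHT in normoxia, and 2634 and 2068 in hypoxia. For hypoxia in monolayer these were 1139 and 6089, and in EHT 1609 and 3043. On deposited values without centring, 325 were higher and 3099 lower for EHT in normoxia, and 607 and 946 in hypoxia. List counts per library total or on deposited values are to be read against these.

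**Figure D1:**
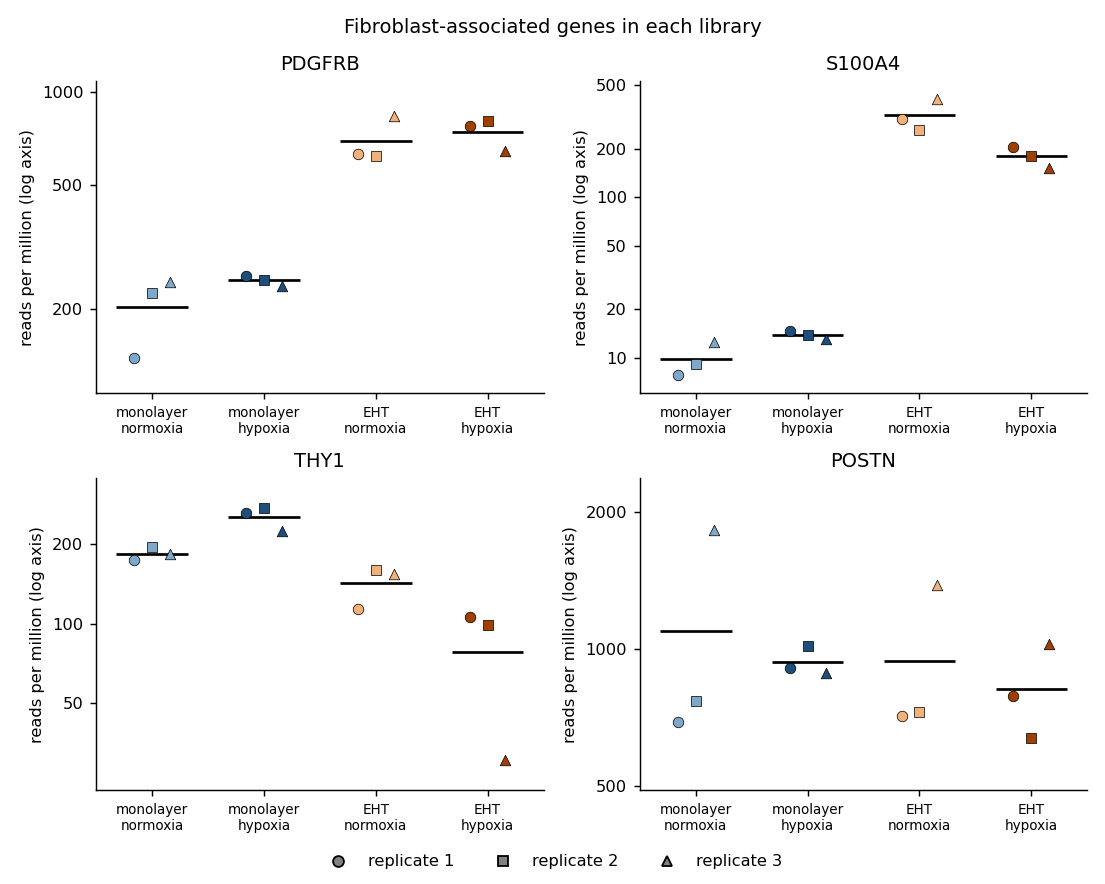
CPM in each library (log axis) for PDGFRB, S100A4, THY1 and POSTN, with symbols for replicate number and a line at each group's mean. All 6 EHT libraries lie above all 6 monolayer libraries for PDGFRB and S100A4, the EHT hypoxia library numbered 3 is the lowest for THY1, and the groups overlap for POSTN.

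PDGFRB, the receptor that binds PDGF-B and PDGF-D dimers, stood at 139, 226 and 244 CPM in the monolayer normoxia libraries and at 256, 248 and 238 in monolayer hypoxia. It stood at 634, 623 and 835 in EHT normoxia and at 780, 807 and 645 in EHT hypoxia. The lowest EHT library was well above the highest monolayer library. EHT normoxia averaged 697 ± 120 (SD, n = 3) and monolayer normoxia 203 ± 56.2 (SD, n = 3), a ratio of 3.44. PDGFRB rose by 2.16 ± 0.19 log2 units in EHT in normoxia (limma adjusted p 4.1e-06), the 227th largest of 12084 differences. It rose by 1.48 ± 0.19 in EHT in hypoxia (limma adjusted p 1.0e-04), the 489th largest. On the deposited values without centring, the 2 culture groups in normoxia overlapped, where monolayer normoxia replicate 3 had the highest library median, and the difference was 1.43 (limma adjusted p 0.0145).

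Within monolayer, PDGFRB rose by 1.06 ± 0.19 in hypoxia (limma adjusted p 5.4e-04), although the CPM overlapped between the groups (203 ± 56.2 and 247 ± 9.25, SD, n = 3). Scaling by library total gave 0.33 (limma adjusted p 0.165) and the deposited values gave 0.51 (limma adjusted p 0.468). The median difference of all genes tested was 0.07 on centred values and -0.65 per library total. The 10 most abundant genes took 9.29% to 10.7% of reads in monolayer normoxia and 20.2% to 20.6% in monolayer hypoxia, and FN1 (fibronectin) alone took 1.32% to 3.38% and 9.897% to 10.95%. Their part in the PDGFRB difference was not tested. In EHT the hypoxia difference of PDGFRB was 0.37 ± 0.19 (limma adjusted p 0.141), and the difference between the 2 hypoxia responses was -0.69 ± 0.26 (limma adjusted p 0.0746).

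Among 7 genes for PDGF ligands and the proteases that activate them, 6 were tested. In EHT against monolayer in normoxia 2 rose and 0 fell, against 22.8% and 18.5% of all genes. Per library total 2 rose and 3 fell. PLAT, tissue plasminogen activator, which activates PDGF-C, rose by 2.66 ± 0.25 in normoxia and by 2.33 ± 0.25 in hypoxia. PLAU, urokinase, which activates PDGF-D, rose by 2.45 ± 0.46 and 2.82 ± 0.46. In hypoxia PDGFB, a ligand of both receptors, fell by 2.81 ± 0.35 in EHT against monolayer, and PDGFC fell by 0.83 ± 0.17.

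PDGFA, the ligand of PDGFRA, fell with hypoxia in both cultures. It stood at 91.5, 46.8 and 35.2 CPM in monolayer normoxia and at 10.5, 7.33 and 6.09 in monolayer hypoxia. In EHT it stood at 37.6, 59.5 and 45.5 in normoxia and at 6.57, 8.43 and 8.83 in hypoxia. The hypoxia libraries of both cultures were thus all lower than all normoxia libraries, with differences of -1.80 ± 0.31 in monolayer and -2.04 ± 0.31 in EHT. PDGFB rose by 1.21 ± 0.35 with hypoxia in monolayer and fell by 1.09 ± 0.35 in EHT, and the difference between the responses was -2.29 ± 0.50. The monolayer rise was 0.51 per library total (limma adjusted p 0.256) and 0.66 on deposited values. PDGFB CPM overlapped between the monolayer groups (8.98 to 18.7 in normoxia and 16.8 to 22.8 in hypoxia). Over the list, hypoxia raised 1 and lowered 2 of 6 genes in monolayer (0 and 4 per library total), and lowered 4 in EHT. On centred values 27.8% of all genes rose and 18.6% fell with hypoxia in monolayer, and 19.5% and 16.0% in EHT.

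Of 20 receptor partners, effectors and inhibitors, 19 were tested. In EHT against monolayer, 8 rose and 3 fell in normoxia (5 and 4 per library total), against 22.8% and 18.5% of all genes. In hypoxia 6 rose and 5 fell, against 18.4% and 19.7%. LRP1, a co-receptor that PDGFRB phosphorylates, rose by 1.79 ± 0.20 in normoxia. DUSP6, an ERK phosphatase induced by the pathway, rose by 2.55 ± 0.31 in normoxia and by 4.12 ± 0.31 in hypoxia. SRC, a kinase recruited by the receptor, fell by 1.20 ± 0.20 in normoxia. The list's hypoxia counts in monolayer were 7 higher and 1 lower on centred values but 4 and 8 per library total. In EHT they were 5 and 3, or 2 and 3 per library total. The centred shares of all genes were 27.8% higher and 18.6% lower in monolayer, and 19.5% and 16.0% in EHT.

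**Figure D2:**
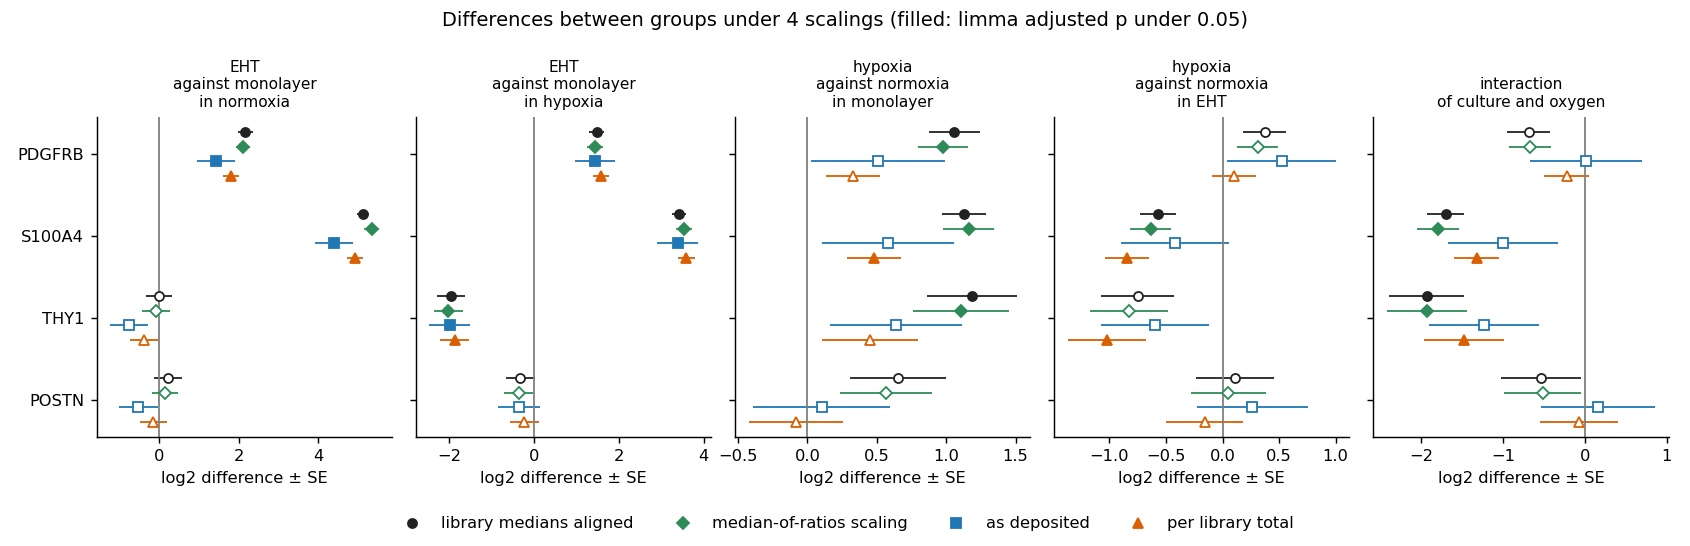
Log2 difference with its SE for the 4 genes (rows) in each comparison (panels), under 4 ways of scaling the libraries. Filled symbols have a limma adjusted p under 0.05. The EHT differences of PDGFRB and S100A4 are filled under all 4 scalings, while those of hypoxia in monolayer lose their calls on deposited values.

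S100A4 showed the largest differences of the 4 genes between the cultures. It stood at 7.79, 9.15 and 12.5 CPM in monolayer normoxia and at 14.7, 13.8 and 13.1 in monolayer hypoxia. It stood at 308, 262 and 408 in EHT normoxia and at 205, 182 and 152 in EHT hypoxia. The groups did not overlap, and the order from highest to lowest was EHT normoxia, EHT hypoxia, monolayer hypoxia and monolayer normoxia. The mean of 326 ± 74.4 in EHT normoxia was 33.2 times the 9.82 ± 2.44 of monolayer normoxia, and in hypoxia 179 ± 26.4 was 12.9 times 13.9 ± 0.810 (SD, n = 3). S100A4 rose by 5.12 ± 0.16 in EHT in normoxia (limma adjusted p 1.5e-09), the 10th largest of 12084 differences. In hypoxia it rose by 3.42 ± 0.16 (limma adjusted p 2.4e-07), the 23rd largest.

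Hypoxia moved S100A4 in opposite directions in the 2 cultures. In monolayer it rose by 1.13 ± 0.16 (limma adjusted p 9.8e-05). Per library total the rise was 0.48 (limma adjusted p 0.0495), and on deposited values 0.58 (limma adjusted p 0.395). In EHT it fell by 0.57 ± 0.16 (limma adjusted p 0.0138). That call was lost without EHT normoxia replicate 3 (-0.46, limma adjusted p 0.0615), without both EHT libraries numbered 3 (-0.38, limma adjusted p 0.104) and on deposited values (-0.42, limma adjusted p 0.672). The difference between the responses was -1.70 ± 0.22 (limma adjusted p 3.3e-04), but on deposited values it was -1.001 (limma adjusted p 0.393).

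Among the genes of the table, S100A4 lies between S100A3 and S100A5 in the RefSeq annotation of the macaque assembly T2T-MMU8v2.0. Of 18 listed S100 genes, 15 were in the table and 7 were tested. In EHT against monolayer, 3 rose and 1 fell in normoxia, against 22.8% and 18.5% of all genes. In hypoxia 2 rose and 0 fell, against 18.4% and 19.7%. S100A6, another calcium-binding member of the cluster, stood at 71.6, 65.5 and 58.2 CPM in monolayer normoxia and at 26.5, 25.5 and 23.0 in monolayer hypoxia. In EHT it stood at 546, 569 and 976 in normoxia and at 321, 292 and 431 in hypoxia, above every monolayer library. It rose by 3.70 ± 0.20 in EHT in normoxia and by 3.59 ± 0.20 in hypoxia. S100A6 fell with hypoxia in both cultures, by 0.58 ± 0.20 in monolayer and by 0.69 ± 0.20 in EHT. S100A10, the annexin A2 partner, rose by 1.13 ± 0.17 with hypoxia in EHT. S100P, a member found in epithelial cells, was called lower in EHT in normoxia, where it had 0 reads in all 3 libraries. Epithelial markers took 0.000751% to 0.00132% of reads there, against 0.0904% to 0.478% in monolayer normoxia.

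**Figure D3:**
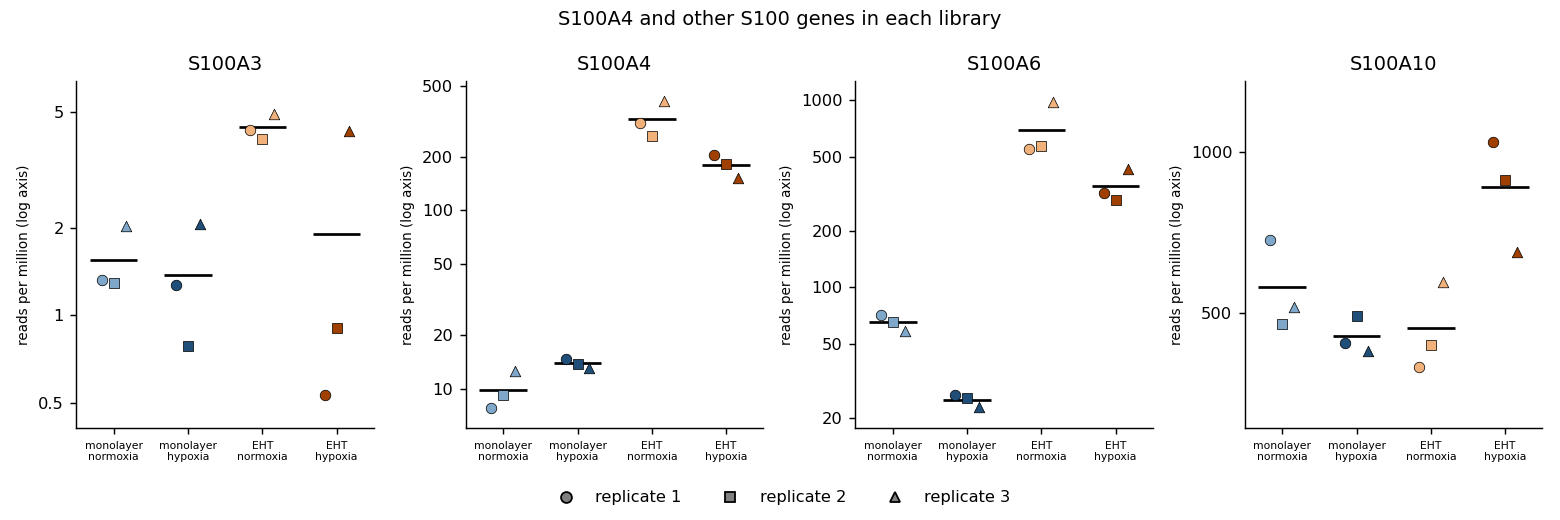
CPM (log axis) of S100A3, S100A4, S100A6 and S100A10 in each library, with a line at each group's mean. S100A4 and S100A6 are higher in every EHT library than in every monolayer library, whereas S100A10 is highest in EHT hypoxia; S100A3 is low throughout.

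Of 6 genes for S100A4 partners, 2 rose and 0 fell in EHT in normoxia, against 22.8% and 18.5% of all genes. Per library total the counts were 0 and 2. MYH9, the non-muscle myosin heavy chain that S100A4 binds, rose by 1.13 ± 0.33. In hypoxia 2 rose and 0 fell, against 18.4% and 19.7%, and AGER, a receptor for S100 proteins, rose by 1.66 ± 0.23. AGER fell by 1.84 ± 0.23 with hypoxia in monolayer. S100A4 is also a leukocyte gene, and leukocyte and macrophage markers (7 of 8 in the table) took 0.00449% to 0.0381% of reads in monolayer normoxia and 0.00320% to 0.00348% in monolayer hypoxia. They took 0.00105% to 0.0217% in EHT normoxia and 0.00127% to 0.0143% in EHT hypoxia, where 2 of the 3 libraries were above every monolayer hypoxia library. Their part in the S100A4 differences was not tested.

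THY1 stood at 173, 195 and 183 CPM in monolayer normoxia and at 261, 272 and 224 in monolayer hypoxia. It stood at 113, 159 and 153 in EHT normoxia and at 106, 98.5 and 30.6 in EHT hypoxia. Monolayer hypoxia was the highest group and EHT hypoxia the lowest, with replicate 3 far below its group. In normoxia the centred difference between cultures was -0.01 ± 0.32 (limma adjusted p 0.982), although the CPM did not overlap. In hypoxia THY1 fell by 1.95 ± 0.32 in EHT (limma adjusted p 6.3e-04), the 382nd lowest of 12084 differences. Without EHT hypoxia replicate 3 that difference was -1.42 and was still called.

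In monolayer THY1 rose by 1.19 ± 0.32 with hypoxia (limma adjusted p 0.00936). Per library total the value was 0.45 (limma adjusted p 0.272), and on deposited values 0.64 (limma adjusted p 0.344). In EHT the hypoxia difference was -0.75 ± 0.32 (limma adjusted p 0.0900). It was -0.22 without EHT hypoxia replicate 3, and -1.02 per library total (limma adjusted p 0.0314). The difference between the responses was -1.94 ± 0.46 (limma adjusted p 0.00904), and -1.24 on deposited values (limma adjusted p 0.261). In RefSeq THY1 overlaps the non-coding gene LOC106993502. Whether strand was used in counting is not given, so reads of the 2 genes cannot be told apart.

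THY1 is also a surface marker of mesenchymal stromal cells. Of 10 other such genes, 4 rose and 1 fell in EHT in normoxia, against 22.8% and 18.5% of all genes. In hypoxia 5 rose and 0 fell, against 18.4% and 19.7%. NT5E (CD73), an enzyme that makes adenosine, rose by 3.87 ± 0.36 and 3.69 ± 0.36. ENG (CD105), a TGF-beta co-receptor, stood at 23.8, 39.7 and 33.4 CPM in monolayer normoxia and at 258, 227 and 333 in EHT normoxia. In hypoxia it stood at 11.5, 9.88 and 9.54 in monolayer and at 32.7, 36.1 and 45.9 in EHT. ENG thus rose by 3.37 ± 0.20 and 1.63 ± 0.20 in EHT, and fell with hypoxia in both cultures, by 0.75 ± 0.20 in monolayer and fell by 2.49 ± 0.20 in EHT. CD44, the hyaluronan receptor, rose by 2.72 ± 0.25 in EHT in hypoxia. With hypoxia 1 rose and 5 fell in monolayer (1 and 7 per library total). Hypoxia in monolayer called 27.8% of all genes higher and 18.6% lower on centred values.

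POSTN stood at 693, 771 and 1825 CPM in monolayer normoxia and at 908, 1016 and 885 in monolayer hypoxia. It stood at 712, 728 and 1383 in EHT normoxia and at 788, 636 and 1025 in EHT hypoxia. The groups overlapped in every comparison, and replicate 3 was the highest library in 3 of the 4 groups. The EHT difference was 0.22 ± 0.35 in normoxia (limma adjusted p 0.646) and -0.32 ± 0.35 in hypoxia (limma adjusted p 0.489). The hypoxia difference was 0.65 ± 0.35 in monolayer (limma adjusted p 0.142) and 0.11 ± 0.35 in EHT (limma adjusted p 0.834). The monolayer value was 1.12 and called without monolayer normoxia replicate 3 (limma adjusted p 0.00488), and -0.09 per library total.

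Periostin binds other matrix proteins and integrins. Of 13 matricellular proteins and periostin partners tested, 7 rose and 1 fell in EHT in normoxia, against 22.8% and 18.5% of all genes. The median was 1.15, against 0.07 over all genes. Per library total 6 rose and 2 fell (median 0.78), and on deposited values 3 and 2 (median 0.41). In hypoxia 3 rose and 2 fell, with a median of 0.08, against 18.4% and 19.7% of all genes called higher and lower. ITGB5, an integrin subunit of the kind that binds periostin, rose by 2.42 ± 0.24 in EHT in normoxia, and THBS2 (thrombospondin 2) by 2.07 ± 0.27. SPARC, a collagen-binding matricellular protein, rose by 1.38 ± 0.22. With hypoxia 7 rose and 1 fell in monolayer (4 and 3 per library total), FN1 by 3.06 ± 0.48, and 0 rose and 2 fell in EHT. On centred values 27.8% of all genes rose and 18.6% fell with hypoxia in monolayer, and 19.5% and 16.0% in EHT.

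Genes of activated fibroblasts rose in EHT in normoxia in 6 of 12 cases and fell in 1 (4 and 2 per library total). In hypoxia 1 rose and 5 fell. Of all genes, 22.8% rose and 18.5% fell in normoxia, and 18.4% rose and 19.7% fell in hypoxia. CNN1 and TAGLN of this list are also counted below as smooth muscle markers. In normoxia CNN1 fell by 1.54 ± 0.42 and TAGLN rose by 0.83 ± 0.25. In hypoxia CNN1 fell by 3.19 ± 0.42 and TAGLN by 1.79 ± 0.25. FAP, a fibroblast surface protease, stood at 138, 83.5 and 77.04 CPM in monolayer normoxia and at 458, 500 and 495 in monolayer hypoxia. In EHT it stood at 573, 629 and 508 in normoxia and at 422, 382 and 399 in hypoxia. Monolayer normoxia was thus the low group, and the difference between the 2 hypoxia responses was -3.27 ± 0.27. CTHRC1, a secreted collagen modifier, rose by 2.74 ± 0.17 and 1.54 ± 0.17 in EHT. TNC (tenascin C) fell by 3.65 ± 0.34 in EHT in hypoxia. With hypoxia 10 of 12 rose in monolayer (7 and 1 lower per library total), LOX, the collagen cross-linking enzyme, by 3.95 ± 0.38. Hypoxia in monolayer called 27.8% of all genes higher and 18.6% lower on centred values.

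Of 12 TGF-beta ligands, receptors and targets, 7 rose and 1 fell in EHT in normoxia (4 and 3 per library total). In hypoxia 3 rose and 2 fell. Of all genes, 22.8% rose and 18.5% fell in normoxia, and 18.4% rose and 19.7% fell in hypoxia. TGFBR2, the type II receptor, rose by 2.24 ± 0.15 and 1.95 ± 0.15. TGFB1 rose by 2.34 ± 0.28 in EHT in normoxia and by 2.82 ± 0.28 with hypoxia in monolayer, where 8 genes of the list rose (3 higher and 2 lower per library total). On centred values 27.8% of all genes rose and 18.6% fell with hypoxia in monolayer.

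A ratio of reads within a library does not depend on library scaling. Per 100 PDGFRB reads, S100A4 had 4.05 to 5.61 reads in monolayer normoxia and 5.51 to 5.75 in monolayer hypoxia. It had 42.1 to 48.8 in EHT normoxia and 22.6 to 26.2 in EHT hypoxia. The S100A4 to PDGFRB ratio was thus higher in EHT than in monolayer by 3.25 log2 units in normoxia and by 2.10 in hypoxia, with no overlap. Between EHT normoxia and EHT hypoxia the ratio differed by -0.95, with no overlap. In monolayer the hypoxia difference was 0.20, with overlap.

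THY1 had 74.9 to 125 reads per 100 PDGFRB reads in monolayer normoxia and 94.2 to 110 in monolayer hypoxia. It had 17.9 to 25.5 in EHT normoxia and 4.74 to 13.5 in EHT hypoxia. The ratio was lower in every EHT library than in every monolayer library, with log2 differences of -2.20 in normoxia and -3.46 in hypoxia. POSTN had 342 to 748, 354 to 409, 112 to 166 and 78.9 to 159 reads in the same order, also without overlap between cultures. For 8 of the 12 ratio comparisons the exact two-sided permutation p was 0.1, the smallest that 3 against 3 libraries allow (0.15 adjusted over the 12). None could reach 0.05 in this design.

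**Figure D4:**
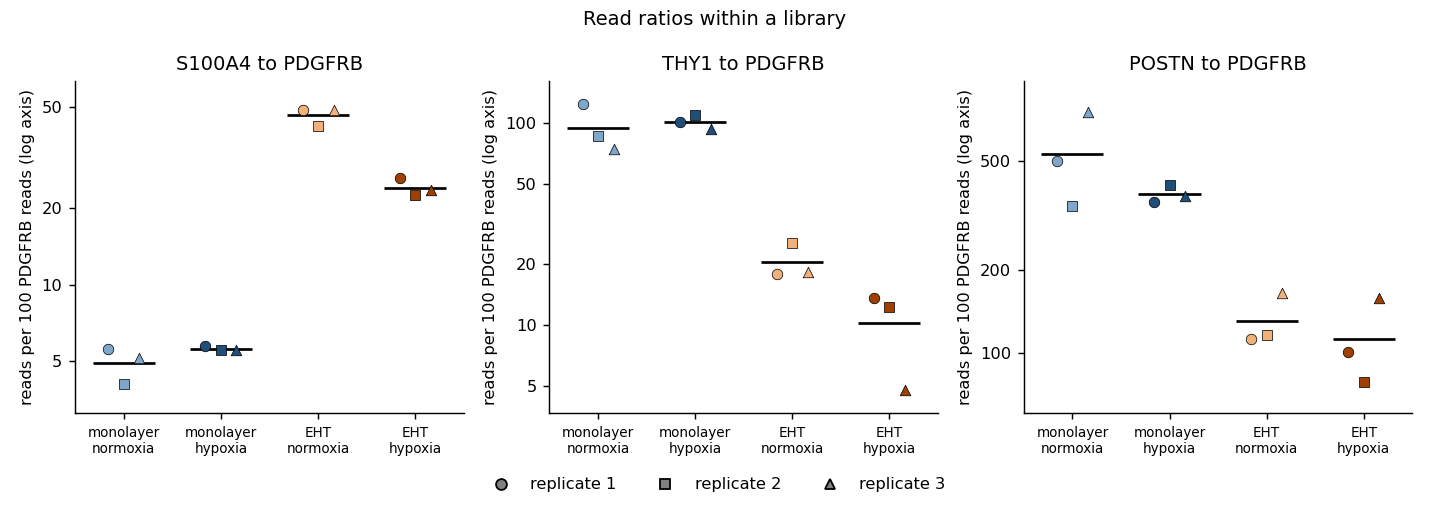
Reads of S100A4, THY1 and POSTN per 100 PDGFRB reads in each library (log axis), with a line at each group's mean. In EHT the S100A4 ratio is higher and the THY1 and POSTN ratios lower than in any monolayer library.

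The 18 other fibroblast markers tested were not uniform. In EHT against monolayer, 10 rose and 3 fell in normoxia (median 0.88), against 22.8% and 18.5% of all genes. In hypoxia 7 rose and 1 fell (median 0.34), against 18.4% and 19.7%. In normoxia the counts were 8 and 4 (median 0.51) per library total and 3 and 4 (median 0.14) on deposited values. In hypoxia they were 7 and 1 (median 0.46) and 3 and 1 (median 0.30). On deposited values the normoxia median of all genes was -0.66, with 325 genes called higher and 3099 lower. The normoxia counts of higher and lower genes there also differed from those on centred values for other lists. They were 4 and 2 for activated fibroblast genes, 2 and 2 for PDGF ligands and proteases, 1 and 3 for receptor partners, and 1 and 2 for the S100 family. For TGF-beta genes they were 3 and 2, and for stromal surface markers 3 and 2. MMP2, a matrix metalloproteinase, rose by 2.26 ± 0.23 and COL6A1 by 1.99 ± 0.21 in normoxia, while FBLN1 (fibulin 1) fell by 1.45 ± 0.28 and TCF21, a transcription factor of cardiac fibroblast precursors, fell by 1.17 ± 0.44. DCN (decorin) stood at 2294, 3336 and 6395 CPM in monolayer normoxia and at 1045, 1142 and 953 in monolayer hypoxia. In EHT it stood at 1935, 1593 and 2163 in normoxia and at 4851, 3533 and 2170 in hypoxia. DCN fell by 1.07 ± 0.34 with hypoxia in monolayer, and the difference between the responses was 2.17 ± 0.48.

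PDGFRB is also a mural cell gene. Of 6 other mural markers tested, 1 rose and 3 fell in EHT in each oxygen condition. Of all genes, 22.8% rose and 18.5% fell in normoxia, and 18.4% rose and 19.7% fell in hypoxia. RGS5, a pericyte G-protein regulator, stood at 27.9, 78.9 and 76.5 CPM in monolayer normoxia and at 3.13, 0.923 and 1.68 in EHT normoxia. In hypoxia it stood at 71.2, 63.8 and 69.3 in monolayer and at 27.7, 21.5 and 24.0 in EHT. RGS5 fell by 3.44 ± 0.31 and 1.51 ± 0.31 in EHT, opposite to PDGFRB, and CSPG4 (NG2) rose by 1.46 ± 0.19 in normoxia. HIGD1B, a pericyte marker, was listed at 0 in every library, as was FURIN, a protease that most cells make, so these zeros are not read as levels. Mural markers together took 0.0519% to 0.0666% of reads in monolayer normoxia and 0.0386% to 0.0578% in EHT normoxia. In hypoxia they took 0.0652% to 0.0764% in monolayer and 0.0361% to 0.0515% in EHT. Of 8 smooth muscle markers, CNN1 and TAGLN among them, 1 rose and 4 fell in EHT in normoxia (0 and 5 per library total). In hypoxia 8 fell, ACTG2 (smooth muscle gamma-actin) by 4.88 ± 0.37.

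**Figure D5:**
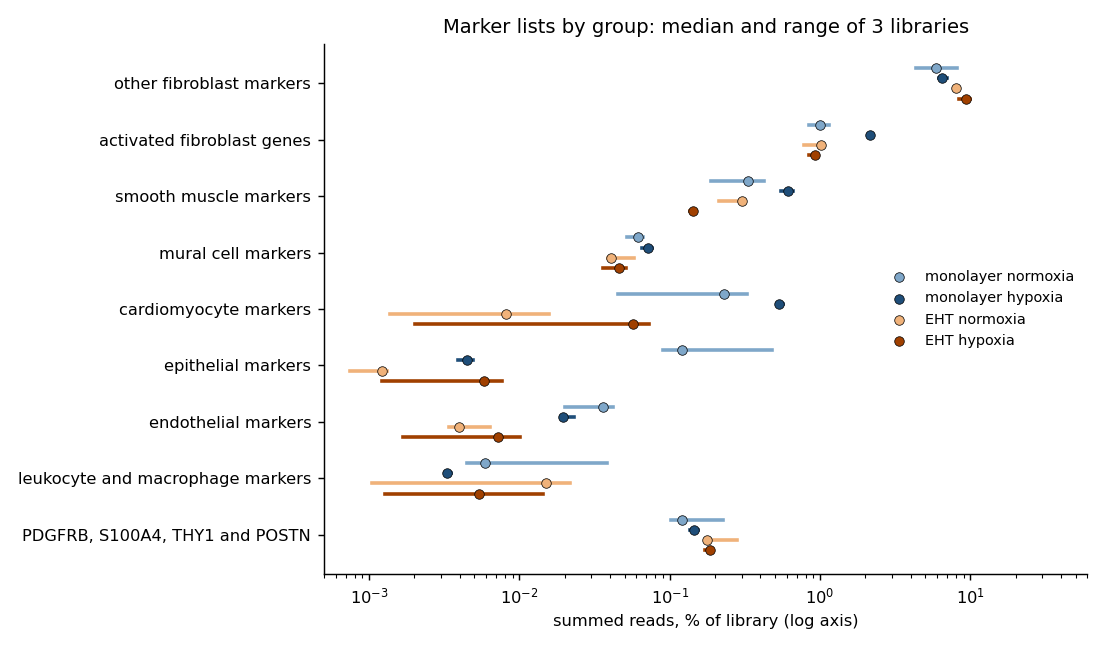
Summed reads of each marker list as a percentage of the library (log axis), with the median (point) and range (line) of 3 libraries in each group. Cardiomyocyte and endothelial markers lie lower in EHT than in monolayer at the same oxygen condition. Other fibroblast markers lie higher in EHT in hypoxia (8.41% to 9.95%, against 6.21% to 6.96% in monolayer). In normoxia they overlap (7.97% to 8.44% in EHT and 4.35% to 8.15% in monolayer). Activated fibroblast genes lie lower in EHT in hypoxia (0.844% to 0.953%, against 2.08% to 2.26% in monolayer) and overlap in normoxia.

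Shares of cardiomyocyte and endothelial markers, among other lists, did not overlap between the cultures at the same oxygen condition. Those of epithelial markers did not in normoxia, nor those of other fibroblast markers in hypoxia. Activated fibroblast genes went the other way in hypoxia, also without overlap, at 0.844% to 0.953% in EHT and 2.08% to 2.26% in monolayer. Epicardial markers and those of early and cardiac mesoderm, which include KDR, also lay lower in EHT at both oxygen conditions without overlap. Of 6 epicardial markers tested, 0 rose and 3 fell in normoxia, against 22.8% and 18.5% of all genes. In hypoxia MSLN rose by 2.49 ± 0.48 and ALDH1A2 fell by 3.41 ± 0.63. They were the only epicardial genes called there, against 18.4% and 19.7%. Stromal surface markers lay higher in EHT (0.213% to 0.251% in normoxia, against 0.111% to 0.130% in monolayer). Their part in the differences of the 4 genes was not tested. Endothelial markers took 0.0190% to 0.0422% of reads in monolayer and 0.00168% to 0.01002% in EHT over both oxygen conditions. Their members did not all move one way. Of 5 tested, 1 rose and 2 fell in normoxia, against 22.8% and 18.5% of all genes. In hypoxia 2 rose and 1 fell, against 18.4% and 19.7%. KDR, a VEGF receptor, fell by 3.52 ± 0.76 in normoxia and fell by 3.84 ± 0.76 in hypoxia, while PECAM1 (CD31) rose by 2.21 ± 0.51 and 1.87 ± 0.51. The epithelial share of monolayer hypoxia was 0.00392% to 0.00491%, far below monolayer normoxia, and overlapped the 0.00122% to 0.00768% of EHT hypoxia.

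Across the 12 libraries PDGFRB and S100A4 had a Pearson r of 0.94 on centred values, whereas THY1 had -0.37 with PDGFRB and -0.46 with S100A4. The genes most like each member among 10480 compared were PARP15 (0.987), EMP3 (0.985) and MAP3K12 (0.980) for PDGFRB. For S100A4 they were JTB (0.992), B2M (0.984) and CTHRC1 (0.983). For THY1 they were ELFN1 (0.963), GYG1 (0.959) and NDUFB5 (0.951), and for POSTN FRG1 (0.837), MMADHC (0.815) and UBE2M (0.7998). The libraries share 4 group means, so these values describe the pattern over groups.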

How the data were processed

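RNA was extracted with the RNeasy Mini Kit and sequenced on the Ion Proton, per the labels' protocols. The submitters' processing notes name HISAT2, featureCounts and DESeq2; versions and genome build were not given in the sources used here. The authors deposited variance-stabilised values on a log2 scale for 16745 genes in 12 libraries, with 0 columns unused. Inverting the transformation gave whole reads (within 0.01) for 100% of values, from which CPM (reads per 1000000 assigned reads) were computed. The 12084 genes whose mean exceeded the table's minimum of 3.00 by 1 log2 unit or more entered the tests. Deposited values were centred on each library's median, and limma 3.58.1 in R 4.3.3 was fitted with a mean-variance trend and 1 mean per group over all 12 libraries, with Benjamini-Hochberg adjustment over those genes and a threshold of 0.05. The procedure was tested on simulated libraries in which 80, 80 and 40 of 12084 genes changed 2-fold, 4-fold and 8-fold in EHT normoxia. On centred values 40%, 91.25% and 100% of these were recovered, and on deposited values 7.5%, 48.75% and 90%. Far more genes were called in the real data, so the simulation cannot show how centring behaves there. Ratios were tested by exact permutation and were added after seeing the data. Alternatives covered scaling, variance model, filter and libraries. Replicates differed by more than sampling noise, so no library was counted as a duplicate. Named genes were the 5 members, at most 3 genes per direction, list and comparison with the smallest p, and the 3 genes most correlated with each member; values of every library are given for some of them, and S100A3, HIGD1B, FURIN, MYL2 and the ligands described by library were chosen after their values were seen. The members and lists were chosen with earlier results of these data known. Results for some listed genes are not reported here.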

Additional observations from a re-analysis of the deposited data

Results flagged for a closer look

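The hypoxia difference of S100A4 was lower in EHT than in monolayer by 1.70 log2 units (a difference of -1.70), tested by the interaction term of limma (adjusted p 3.3e-04): all 3 EHT hypoxia libraries were below all EHT normoxia libraries, and all 3 monolayer hypoxia libraries above all monolayer normoxia libraries. THY1 had a difference of -1.94 between the responses by the same test (limma adjusted p 0.00904), of which -1.41 remained without EHT hypoxia replicate 3. Both calls were lost on the deposited values without centring, at -1.001 and -1.24.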

How the results depend on the processing

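Over 20 member results, 396 alternatives were computed, of which 355 kept direction and side of the threshold, 20 changed sign, 12 lost a call and 9 gained one. The EHT differences of PDGFRB (1.43 to 2.34 in normoxia, 1.42 to 1.58 in hypoxia) and S100A4 (4.38 to 5.39 and 3.21 to 3.59) kept their calls in all alternatives run. Scaling by library total was added after seeing the data. On deposited values without centring, 3424 genes were called for EHT in normoxia (325 higher and 3099 lower, against 2750 and 2234), 1553 for EHT in hypoxia (607 higher and 946 lower, against 2227 and 2375), 2945 for hypoxia in monolayer (535 and 2410, against 3362 and 2253), 1128 for hypoxia in EHT (858 and 270, against 2360 and 1932) and 1249 for the interaction (1147 and 102, against 1248 and 1708). Per library total the splits were 1332 and 4417, 2634 and 2068, 1139 and 6089, 1609 and 3043, and 3133 and 716, and with median-of-ratios scaling 2259 and 2885, 2154 and 2664, 2831 and 2786, 2359 and 2204, and 1531 and 1550. Array weights gave 4753 genes for the interaction. On deposited values limma called 0 members for hypoxia in monolayer, for hypoxia in EHT and for the interaction, and 0 had an unadjusted p under 0.05. For hypoxia in monolayer, quantile normalization and library total each called 1 member. For hypoxia in EHT, quantile normalization, array weights and library total each called 2, and leaving out both EHT libraries numbered 3 called 0 (1 at an unadjusted p under 0.05 by limma). Leaving out 1 library gave 0 to 2 members for hypoxia in EHT, 3 to 4 for hypoxia in monolayer, 2 to 3 for the interaction, 2 to 2 and 3 to 3 for EHT in normoxia and hypoxia, and 3930 to 4472, 3401 to 4530, 4472 to 4969, 3287 to 5317 and 2096 to 4076 genes in the 5 comparisons. POSTN and THY1 in EHT in normoxia changed sign: THY1 was 0.047 with array weights and -0.12 to 0.11 leaving out 1 library. POSTN was -0.52 on deposited values, -0.23 with quantile normalization, -0.15 per library total, -0.036 without both EHT libraries numbered 3 and -0.049 to 0.69 leaving out 1 library. The hypoxia difference of POSTN in monolayer was -0.19 with quantile normalization and -0.085 per library total, and in EHT it was -0.15, -0.16 and, leaving out 1 library, -0.11 to 0.37. On deposited values the interaction was 0.014 for PDGFRB and 0.16 for POSTN (0.039 with quantile normalization). The THY1 to PDGFRB ratio for hypoxia in monolayer was -0.030 to 0.34 leaving out 1 library, the lowest without monolayer normoxia replicate 3. The causes were not tested. PDGFRB gained calls with array weights for hypoxia in EHT (0.49, limma adjusted p 0.0148) and for the interaction (-0.55, limma adjusted p 0.0474), and for the interaction without monolayer normoxia replicate 3 (-0.87, limma adjusted p 0.0253). Same-numbered libraries had deviations correlated at -0.06 to 0.33, so the numbers were not taken as pairs. The replicate block gave 4976, 4591, 5574, 4223 and 2887 genes and changed no member's call. The planned ratio of PDGFRB to PDGFRA was not run.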
